A study of Mus musculus with 6 samples.

Results

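Mitochondria make few of their proteins themselves, and most are translated in the cytosol and carried in by a dedicated import machinery. This account describes the messenger RNAs of that machinery in the gastrocnemius of the mouse, a mainly fast-fibred muscle of the calf: every gene whose symbol begins with Timm or Tomm, pseudogenes left out, together with Samm50, Pam16, Dnajc15, Dnajc19, Grpel1, Grpel2, Hspa9, Hspd1, Hspe1, Chchd4, Gfer, Pmpca, Pmpcb, Mtx1 and Mtx2. The choice uses gene names alone and gives 42 of the 57010 genes in the expression table. It spans gates in the outer and inner membranes, carriers in the space between them, and the motor, peptidase and chaperones of the matrix. It also takes in Timmdc1, an assembly factor of respiratory complex I, and Tomm6os, an antisense transcript of Tomm6, because of their symbols.

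RNA sequencing was done on 6 samples of gastrocnemius from NSG (NOD/SCID/IL2Rγ-null) mice, an immunodeficient strain that accepts human tumours. All mice carried a subcutaneous tumour in the left flank, grown with Matrigel from a Rab27a knockdown of MDA-MB-231, which is a line of human triple-negative breast cancer. Rab27a is a small GTPase of vesicle secretion, and its knockdown in the tumour cells is shared by both groups, so no value of the muscle checks it. In the radiotherapy group (3 samples) only the tumour was irradiated, with 10 Gy given once, and the contralateral muscle was collected 3 days afterwards. The other 3 samples are labelled control. Age and sex are not stated, and no label states whether samples within a group are different mice, so a p-value here reflects only how far these samples spread. Expression is in TPM, a share of the transcripts corrected for length, which can be compared between genes and sums to the same total in each library. The question addressed is how muscle far from the beam differs after the tumour is irradiated.

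Most matrix proteins are made with an N-terminal presequence. They cross the outer membrane through the TOM complex and the inner membrane through the TIM23 complex, are pulled in by an ATP-driven motor built around the Hsp70 chaperone Hspa9, and lose the presequence to a matrix peptidase. Metabolite carriers instead travel through the intermembrane space on small TIM chaperones to the TIM22 complex, barrel-shaped outer membrane proteins are inserted by the SAM complex, and small cysteine-rich proteins are trapped by the Chchd4 and Gfer disulfide relay. Muscle fibres are rich in mitochondria, and import is known to follow their mitochondrial content and contractile activity.

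No gene of the import machinery passed the test for a difference between radiotherapy and control muscle. Of the 42 genes, 39 reached at least 1 TPM in at least 3 samples and were tested. With limma on log2(TPM + 1), adjusted p ranged from 0.977 to 0.999 over these 39, and 0 were called at 0.05, as were 0% of the 11375 genes tested. Without adjustment 0 of the 39 had a limma p under 0.05, while 0.967% of all genes did so on the higher side and 2.86% on the lower side. The smallest unadjusted limma p among them was 0.0845, for Tomm40l. The 95% interval of the difference stayed within 2-fold in either direction for 35 genes, so for these a change beyond 2-fold lay outside the interval. For Tomm40l, Timmdc1, Timm8a1 and Timm10 it reached past 2-fold on one side. These limits concern bulk muscle, where fewer cells of a type and less RNA per cell cannot be told apart.

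**Figure D1:**
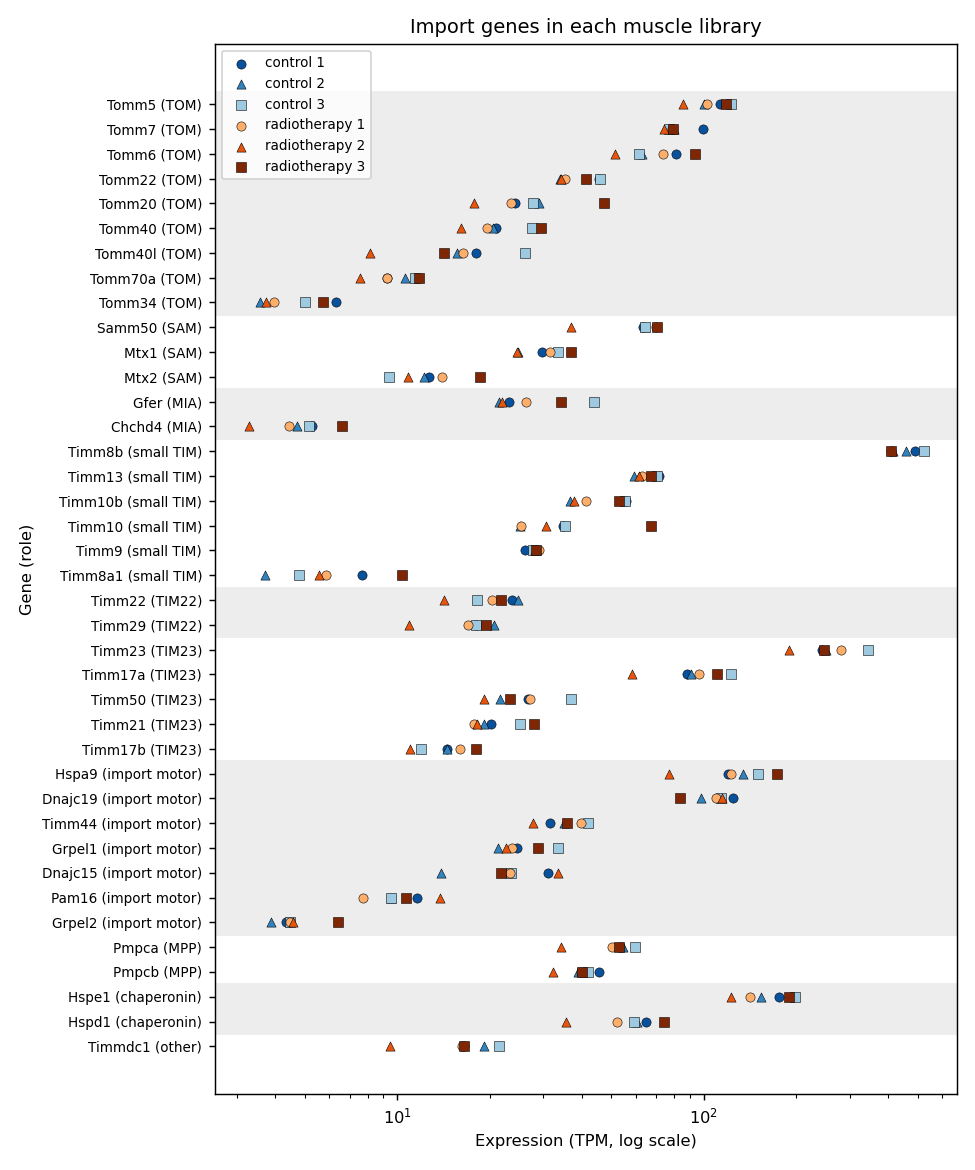
Expression of the 39 tested import genes in each library, in TPM on a log scale, with genes grouped by role (shaded bands) and 1 symbol per library. Timm8b is the most abundant, and for most genes the radiotherapy and control symbols interleave, with radiotherapy 2 often at the left end.

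The 39 genes covered a wide range of levels. Means over the 6 libraries ran from 4.68 TPM for Grpel2 to 450.5 TPM for Timm8b, with a median of 28.5 TPM. There were 6 genes above 100 TPM, 28 between 10 and 100 TPM, and 5 below 10 TPM. The 5 most abundant, Timm8b, Timm23, Hspe1, Hspa9 and Dnajc19, made up 48.9% of the summed TPM of the group. They represent 4 steps of the pathway, namely a carrier of the intermembrane space, the inner membrane channel, the Hsp10 cochaperonin, and a pair of motor components. Together the 42 genes took 0.239 ± 0.0217% of all TPM in control and 0.216 ± 0.0312% in radiotherapy muscle (mean ± SD, n = 3 each), and the lowest of the 6 shares, 0.183%, was that of radiotherapy 2. The plot of expression in each library shows these levels by role, and values quoted for a group are in the order of replicates 1, 2 and 3.

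The 3 genes that were not tested differ in kind. Tomm20l, a paralogue of the receptor Tomm20, and Timm8a2, a paralogue of Timm8a1, were listed at 0 in all 6 libraries. Tomm6os was listed at between 0.06 and 0.26 TPM.

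The letters of a promoter do not come from the expression values, and stretches are shown for some genes that the results return to. RefSeq windows (GRCm38.p6) of 300 bases, 250 before and 50 after the start site, were matched by symbol for 37 of the 42 genes, with 40 windows in all. Grpel2, Hspa9, Timm21, Tomm40l and Tomm7 were not matched. The ETS-type sequence CCGGAAG, read on both strands, was present in 18 of the 40 windows (45%), belonging to 17 genes, against 8.86% of all 32851 windows and 18.2% of the 10880 windows of tested genes. Stretches around 4 of these matches follow, written 5′ to 3′ on the strand of the gene with CCGGAAG or its reverse complement CTTCCGG in capitals. They are from the most abundant gene, the inner membrane channel, and the genes whose groups did not overlap on the lower side. These genes were thus picked in part by their expression values, and a link between the matches and expression was not tested.
Timm8b: gaagcgtgaaCCGGAAGgcaggagacg
Timm23: gcgcttcccaCTTCCGGgccgcacaca
Pmpca: gctcggcgggCCGGAAGccagcgccga
Timmdc1: ccgagagcttCCGGAAGtgagccggct
The Timm8b stretch lies at chr9:50603879-50603905 (GRCm38.p6, plus strand), that of Timm23 at chr14:32201922-32201948 (minus strand), that of Pmpca at chr2:26389285-26389311 (plus strand) and that of Timmdc1 at chr16:38522655-38522681 (minus strand). The first base of the match is 12 bases before the start site in Timm8b, 47 in Timm23, 53 in Pmpca and 8 in Timmdc1. The Timmdc1 stretch also holds an overlapping CTTCCGG, partly in lower case here, whose first base is 11 bases before the start site. In all, the Timm23 window has 2 matches and that of Timmdc1 has 4. A further 3 sequences were searched on both strands. The CCAAT box was in 11 of 40 windows (27.5%) against 37.4% of all and 37.6% of those of tested genes. The heat shock element GAANNTTC was in 3 (7.5%) against 7.86% of all and 5.73% of those of tested genes. The NRF1 motif was searched as a fixed string of letters, with no variants allowed. That string was in 0 of the 40 windows, against 0.971% of all and 2.13% of those of tested genes. Variants of the NRF1 motif were not searched, so the 0 does not show that these windows lack NRF1 sites. The 3 with the heat shock element were Hspd1, Hspe1 and Timm9. Overlapping windows of Hspd1 and Hspe1 hold the same site for it and also share their ETS-type matches. Both Tomm34 windows share an ETS-type match as well, so the window counts include repeats. Such a match describes the letters in the window and no more.

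Hspe1 and Hspd1, the 2 subunits of the matrix chaperonin that folds imported proteins, are neighbours on chromosome 1 and are read in opposite directions. RefSeq gives 2 windows for Hspd1. One shares 285 bases with the Hspe1 window, and its start lies 216 bases before the Hspe1 start, from which the genes are read apart. The other shares 4 bases, and its start lies 95 bases past the Hspe1 start, so that the transcripts overlap. The 215 bases between the Hspe1 start and the first of these Hspd1 starts, chr1:55087933-55088147 on the strand of Hspe1 (GRCm38.p6), are shown because they lie upstream of both. The capitals mark a heat shock match (GAACCTTC) that overlaps a pair of ETS-type matches, one on each strand.
Between the Hspe1 and Hspd1 starts: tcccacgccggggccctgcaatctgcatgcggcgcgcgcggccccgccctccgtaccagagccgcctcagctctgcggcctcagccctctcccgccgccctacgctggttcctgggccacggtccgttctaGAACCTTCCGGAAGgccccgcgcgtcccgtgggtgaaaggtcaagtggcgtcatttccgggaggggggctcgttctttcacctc
Hspe1 had 176, 154 and 199 TPM in control and 142, 123 and 189 TPM in radiotherapy muscle. Hspd1 had 64.8, 60.8 and 59.1 TPM in control and 52.1, 35.7 and 74.03 TPM in radiotherapy muscle. In both genes radiotherapy 2 was the lowest library, and radiotherapy 3 lay inside the control range for Hspe1 and above it for Hspd1, so the groups overlapped. The difference on the log2(TPM + 1) scale was -0.23 (SE 0.24) for Hspe1 and -0.25 (SE 0.29) for Hspd1, and without radiotherapy 2 it was -0.094 and 0.014. The ratio of the 2 subunits within a library, which hardly depends on how the library was scaled, averaged 2.89-fold over the 6 libraries. Its log2 value was 1.49 ± 0.215 in control and 1.51 ± 0.221 in radiotherapy muscle (mean ± SD, n = 3 each). The exact two-sided permutation p for that ratio was 0.7, and 0.788 after adjustment over the 9 pairs compared, with 0.1 the smallest raw p that 3 against 3 allows.

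At the outer membrane the TOM complex supplies the entry gate. Of the 9 tested genes listed with it, which include the cytosolic cochaperone Tomm34, 7 had a negative difference. The median of the 9 was -0.13. Tomm5, a small subunit of the channel and the most abundant of the complex, had 113, 100.5 and 123 TPM in control and 103, 85.8 and 118 TPM in radiotherapy muscle. Tomm40, the channel itself, had 20.9, 20.5 and 27.6 TPM in control and 19.6, 16.2 and 29.5 TPM in radiotherapy muscle. Tomm40l (ENSMUSG00000005674), a paralogue of the channel, had 18.1, 15.7 and 26.2 TPM in control and 16.4, 8.13 and 14.2 TPM in radiotherapy muscle. All 3 showed their lowest value in radiotherapy 2, and the groups overlapped for each. The difference for Tomm40l was -0.61 (SE 0.32, 95% interval -1.33 to 0.10), the most negative of all 39 and -0.34 without radiotherapy 2, while that for Tomm40 was -0.11 and that for Tomm5 -0.14, the latter 2 turning to 0.072 and 0.019 under quantile normalization. In GENCODE M21, 64.3% of the exonic bases of Tomm40l lie opposite Nr1i3, and whether the counting used strand is not given, so reads of the 2 genes may not be told apart. The receptors Tomm20 (0.011), Tomm22 (-0.17) and Tomm70a (-0.13), the small subunits Tomm6 (0.057) and Tomm7 (-0.13), and the cytosolic cochaperone Tomm34 (-0.11) had log2 differences smaller in size than that of Tomm40l. Tomm20 showed the widest proportional spread within radiotherapy among them, from 17.9 TPM in radiotherapy 2 to 47.1 TPM in radiotherapy 3. For Tomm6, 75.95% of the exonic bases coincide on the same strand with Gm21981, so its value is uncertain.

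In the SAM complex 2 of 3 genes had a positive difference. Samm50, the barrel protein that inserts other barrels, had 63.5, 64.3 and 64.4 TPM in control and 69.9, 36.9 and 70.4 TPM in radiotherapy muscle. Its control libraries lay within 1 TPM of each other, while radiotherapy 1 and 3 lay above all controls and radiotherapy 2 far below them. Mtx1, which with Mtx2 forms the cytosolic face of the complex, had 29.8, 24.7 and 33.5 TPM in control and 31.4, 24.6 and 36.9 TPM in radiotherapy muscle. Mtx2 had 12.7, 12.2 and 9.41 TPM in control and 13.99, 10.9 and 18.7 TPM in radiotherapy muscle. Mtx2 was lowest in control 3 and highest in radiotherapy 3, with the groups overlapping, and its difference of 0.30 (SE 0.27) was exceeded on the positive side only by that of Timm8a1 and was 0.11 without radiotherapy 3. For Samm50 it was -0.17 (SE 0.29) and for Mtx1 0.068 (SE 0.25).

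The disulfide relay of the intermembrane space was expressed at unequal levels in its 2 components. Gfer, the sulfhydryl oxidase, had 23.2, 21.5 and 43.7 TPM in control and 26.3, 21.9 and 34.3 TPM in radiotherapy muscle. Chchd4, the receptor that it reoxidises, had 5.26, 4.71 and 5.15 TPM in control and 4.42, 3.27 and 6.62 TPM in radiotherapy muscle. Control 3 stood apart for Gfer and radiotherapy 3 for Chchd4, and neither gene separated the groups. The log2 differences were -0.047 (SE 0.32) and -0.11 (SE 0.26).

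The small TIM chaperones held the most abundant import transcript and also the steadiest. Timm8b (ENSMUSG00000039016), which escorts hydrophobic precursors with Timm13, had 488, 458 and 523 TPM in control and 409, 414 and 411 TPM in radiotherapy muscle. In TPM as deposited, all 3 radiotherapy libraries lay below all 3 controls and within 6 TPM of each other. They were at 411 ± 2.84 TPM against 489.7 ± 32.8 TPM in control (mean ± SD, n = 3 each). The difference was -0.25 on the log2 scale (SE 0.19, 95% interval -0.67 to 0.17), and its limma adjusted p was 0.977. With median-of-ratios scaling it was -0.15 and with quantile normalization -0.096. The size factors of the former were 0.803 for radiotherapy 2 and 1.21 for radiotherapy 3. Both the closeness of the radiotherapy libraries and their separation from the controls thus depend on the scaling. With median-of-ratios scaling the groups overlap. Timm13 had 71.3, 59.4 and 70.7 TPM in control and 63.2, 61.5 and 67.5 TPM in radiotherapy muscle, with overlapping groups and a difference of -0.062. The log2 ratio of Timm8b to Timm13 was 2.85 ± 0.0849 in control and 2.66 ± 0.0730 in radiotherapy muscle (mean ± SD, n = 3 each). Every radiotherapy ratio was below every control ratio. That gave the smallest exact permutation p possible, 0.1, and 0.36 after adjustment over the 9 pairs. Of the exonic bases of Timm8b, 15.6% lie opposite Nkapd1.

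Timm9 and Timm10 form the hexamer that carries metabolite carriers across the intermembrane space. Timm9 had 26.2, 28.3 and 27.8 TPM in control and 28.9, 28.2 and 28.4 TPM in radiotherapy muscle. Its highest library was 1.10 times its lowest, the smallest span of any import gene. Timm10 had 34.6, 25.2 and 35.4 TPM in control and 25.4, 30.6 and 67.5 TPM in radiotherapy muscle. Radiotherapy 3 stood far above the other 5 libraries for Timm10, and the groups overlapped. The difference of 0.25 (SE 0.36) became -0.17 without that library. Timm10b (-0.15) and Timm8a1 (0.37) completed the class, of which 3 of 6 tested genes had a positive and 3 a negative difference, and a match of their coding sequence to other genes is described further on.

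Carrier proteins are then inserted by the TIM22 complex, and both of its genes were a little lower on average in radiotherapy muscle without passing the test. Timm22, the channel, had 23.8, 24.8 and 18.1 TPM in control and 20.4, 14.2 and 21.7 TPM in radiotherapy muscle. Timm29, a metazoan subunit that ties it to TOM, had 18.02, 20.7 and 18.1 TPM in control and 16.98, 10.9 and 19.4 TPM in radiotherapy muscle. Radiotherapy 2 was the lowest library for both, and the other 2 radiotherapy libraries lay within the control range or just under it. The log2 differences were -0.24 (SE 0.26) and -0.28 (SE 0.27), and without radiotherapy 2 they were -0.062 and -0.056.

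In the TIM23 complex 4 of 5 genes had a negative difference, with a median of -0.22. Timm23, the channel for presequence proteins, had 244, 252 and 344 TPM in control and 281, 190.4 and 248 TPM in radiotherapy muscle. Timm17a and Timm17b are alternative partners of Timm23. Timm17a had 88.6, 91.1 and 122 TPM in control and 96.5, 58.3 and 110.4 TPM in radiotherapy muscle. Timm17b had 14.5, 14.5 and 11.96 TPM in control and 16.02, 10.98 and 18.02 TPM in radiotherapy muscle. Timm50, the receptor on the intermembrane side, had 26.7, 21.7 and 36.9 TPM in control and 27.1, 19.2 and 23.4 TPM in radiotherapy muscle. Control 3 was the highest library for Timm23, Timm17a and Timm50, and radiotherapy 2 was the lowest for those and for Timm17b. The log2 differences were -0.22 (SE 0.24) for Timm23, -0.22 (SE 0.29) for Timm17a, -0.26 (SE 0.27) for Timm50 and 0.11 (SE 0.26) for Timm17b, with overlapping groups throughout. Timm21, a subunit that links the complex to the respiratory chain, differed by -0.037. The ratio of Timm17a to Timm17b averaged 6.68-fold. In control 3 it was 10.2-fold and in the other 5 libraries 5.31-fold to 6.27-fold, and its log2 difference of -0.33 (exact permutation p 0.2, adjusted over the pairs 0.36) was -0.091 without control 3.

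The import motor pulls precursors into the matrix, and 3 of its 7 genes had a positive difference. Hspa9, its Hsp70, had 119.8, 134 and 151 TPM in control and 123, 77.1 and 174 TPM in radiotherapy muscle. Radiotherapy 2 was the lowest and radiotherapy 3 the highest of all 6 libraries, and the difference was -0.18 (SE 0.31). Grpel1 and Grpel2 are the nucleotide exchange factors of Hspa9. Grpel1 had 24.6, 21.3 and 33.6 TPM in control and 23.8, 22.7 and 28.7 TPM in radiotherapy muscle. Grpel2 (ENSMUSG00000024580) had 4.34, 3.88 and 4.45 TPM in control and 4.47, 4.55 and 6.41 TPM in radiotherapy muscle. Grpel2 was the single import gene with all 3 radiotherapy libraries above all 3 controls, but the lowest of the former, 4.47 TPM, nearly met the highest of the latter, 4.45 TPM. Its difference was 0.22 (SE 0.23, 95% interval -0.30 to 0.74), or 0.079 without radiotherapy 3, and that of Grpel1 -0.059 (SE 0.25). Every Grpel1 to Grpel2 ratio in radiotherapy muscle was below every control ratio, with log2 means of 2.09 ± 0.0881 against 2.37 ± 0.257 (mean ± SD, n = 3 each). Radiotherapy 1 at 2.18 and control 2 at 2.19 nearly met. The difference of -0.28 in the log2 ratio was -0.13 without control 3. The exact permutation p was 0.1, and 0.36 after adjustment.

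Dnajc19 and Dnajc15 are J proteins that stimulate Hspa9. Dnajc19 had 124, 97.8 and 114 TPM in control and 109.5, 115 and 84.04 TPM in radiotherapy muscle. Dnajc15 had 31.1, 13.9 and 23.5 TPM in control and 23.4, 33.6 and 21.9 TPM in radiotherapy muscle. Dnajc19 was lowest in radiotherapy 3 and Dnajc15 was highest in radiotherapy 2, the reverse of Hspa9, and both had overlapping groups. Their log2 differences were -0.13 (SE 0.23) and 0.24 (SE 0.33), and without control 2 that of Dnajc15 was -0.067. The log2 ratio of Dnajc19 to Dnajc15 was lower by 0.37 in radiotherapy muscle, at 1.94 ± 0.221 against 2.31 ± 0.390 (mean ± SD, n = 3 each), with an exact permutation p of 0.2 and 0.36 adjusted over the pairs. Timm44, which docks the motor on the channel, differed by -0.073, and Pam16, a regulator of the J proteins, by 0.036.

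Presequences are removed by the matrix processing peptidase, a dimer of Pmpca and Pmpcb. Pmpca (ENSMUSG00000026926), the subunit that recognises the substrate, had 53.2, 54.7 and 59.8 TPM in control and 50.2, 34.3 and 53.01 TPM in radiotherapy muscle. Pmpcb, the catalytic subunit, had 45.6, 39.03 and 41.8 TPM in control and 39.7, 32.2 and 40.1 TPM in radiotherapy muscle. Radiotherapy 2 was lowest for both. For Pmpca all radiotherapy libraries lay below all controls, although radiotherapy 3 and control 1 nearly met, at 53.0 and 53.2 TPM. In GENCODE M21, 20.4% of its exonic bases lie opposite Inpp5e. The differences were -0.30 (SE 0.25, 95% interval -0.86 to 0.25) and -0.18 (SE 0.22), and that of Pmpca was -0.11 without radiotherapy 2. The log2 ratio of Pmpcb to Pmpca differed by 0.13, with an exact permutation p of 0.5.

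Timmdc1 (ENSMUSG00000002846), which shares its name with the TIM family but assembles the membrane arm of complex I, had 16.6, 19.2 and 21.5 TPM in control and 16.2, 9.49 and 16.5 TPM in radiotherapy muscle. The radiotherapy libraries were all below the controls, with radiotherapy 3 at 16.5 TPM next to control 1 at 16.6 TPM. The difference was -0.45 (SE 0.28, 95% interval -1.07 to 0.18), with a limma adjusted p of 0.977, and -0.20 without radiotherapy 2.

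**Figure D2:**
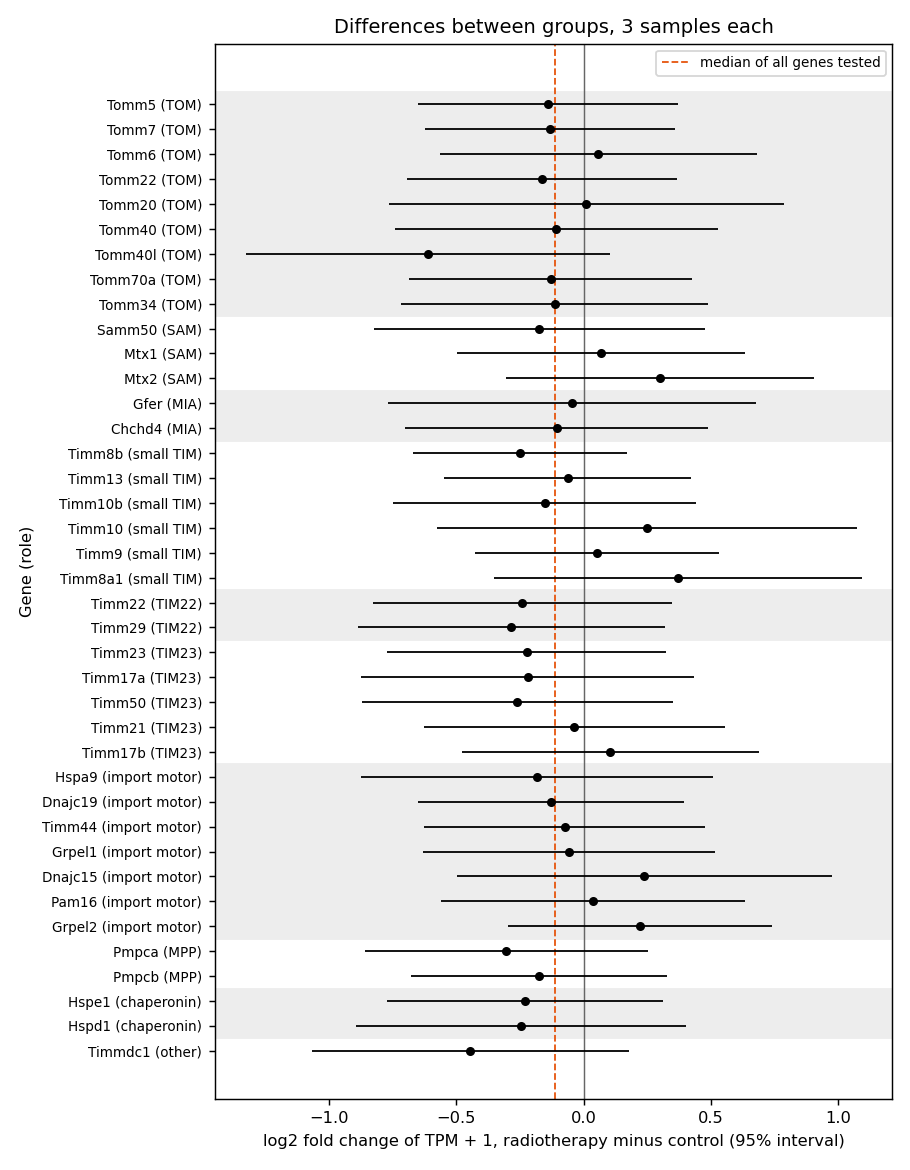
Log2 fold change of TPM + 1, radiotherapy minus control, for the 39 tested import genes grouped by role, with 95% intervals from limma (3 samples per group); the dashed line is the median of all 11375 genes tested, -0.11. Every interval includes 0, and those of Tomm40l and Timmdc1 reach below -1.

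Counts over the group were close to those of all genes tested. In 28 of 39 genes (71.8%) the difference was negative, against 67.9% of all genes, and the median difference was -0.13 against -0.11. In TPM as deposited, the groups did not overlap on the lower side in 3 of 39 (Timm8b, Pmpca and Timmdc1, 7.69%) against 7.54% of all genes. On the higher side this held for 1 (Grpel2, 2.56%) against 1.7%. The mitochondrial ribosomal proteins, another class of nuclear-encoded mitochondrial genes, had a median of -0.14 (78 tested, 64 negative), and the nuclear genes of complex I a median of -0.098 (48 tested, 33 negative). Scaling moved both the group and the background. With quantile normalization the median of all genes went from -0.11 to -0.014 and 15 of the 39 import genes were negative in place of 28. The count was 23 with median-of-ratios scaling and 22 after removing the mitochondrial genome and the most abundant genes, which moved the median of all genes to -0.037 and -0.011. A direction given here is thus relative to total TPM. Under quantile normalization and median-of-ratios scaling 1 import gene, Mtx2, had an unadjusted limma p under 0.05 on the higher side (adjusted p 0.813 and 0.822), and 0 were called.

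The 3 radiotherapy libraries stood apart from each other more than the 2 groups did. Radiotherapy 2 was the lowest of the 6 libraries for 23 of 39 import genes (59.0%), and for 53.1% of all genes tested. Radiotherapy 3 was the highest for 15 (38.5%), and for 36.0% of all genes. In 10 genes both held at once. The import genes of radiotherapy 2 lay at a median of -0.32 from their 6-library means and those of radiotherapy 3 at 0.20, while radiotherapy 1 was at -0.036 and the controls between -0.052 and 0.11. The same medians over all genes were -0.29 for radiotherapy 2 and 0.20 for radiotherapy 3. Counted against the controls, 25 of the 39 genes were below all 3 controls in radiotherapy 2, 16 were above all 3 in radiotherapy 3, and 22 were within the control range in radiotherapy 1. Complex I genes gave another order, with a median of -0.055 in radiotherapy 2 and -0.17 in radiotherapy 3. Leaving out radiotherapy 2 changed the median difference of the import genes to 0.0090 and leaving out radiotherapy 3 changed it to -0.25, beside -0.0066 and -0.25 for all genes.

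**Figure D3:**
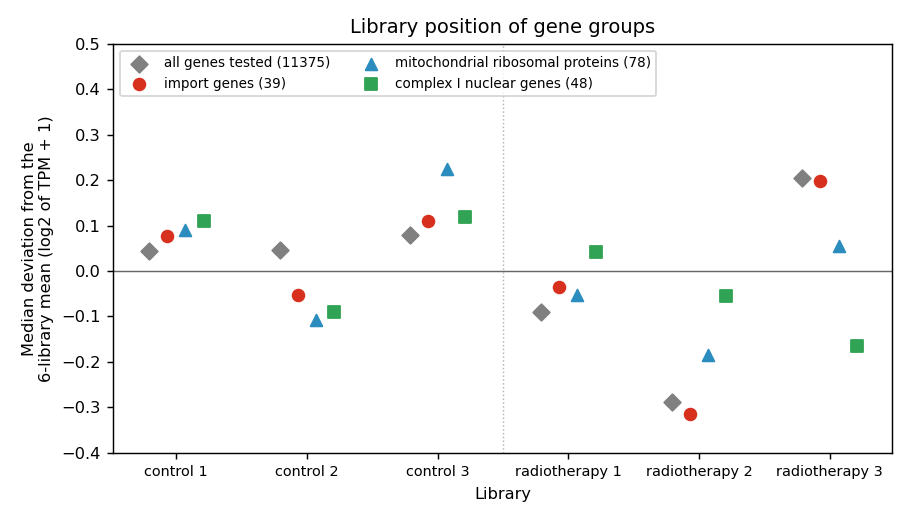
Median deviation from the 6-library mean, in log2 of TPM + 1, for each library and for 4 groups of genes (numbers of genes in parentheses). Import genes follow all genes closely, with radiotherapy 2 lowest at -0.32 and radiotherapy 3 highest at 0.20, and complex I genes are lowest in radiotherapy 3.

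**Figure D4:**
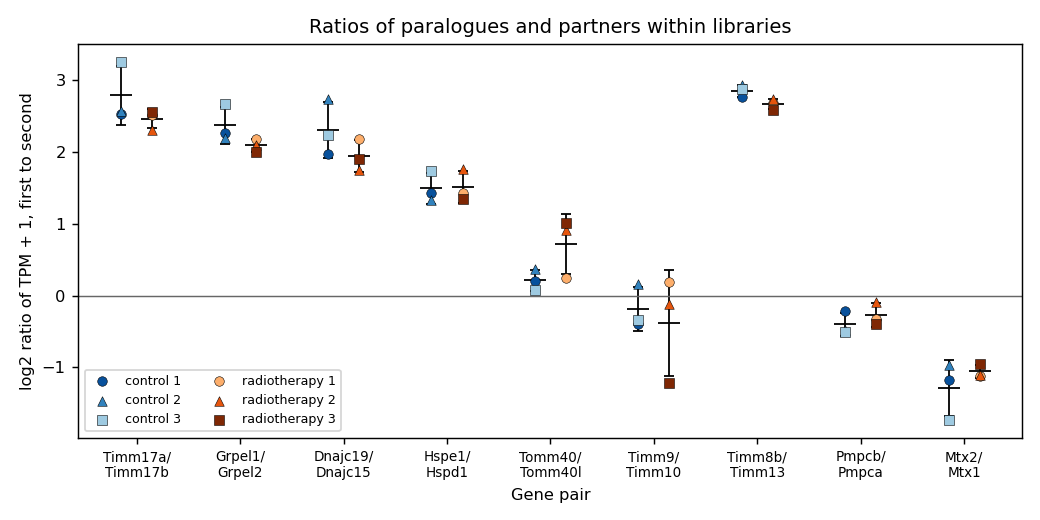
Log2 ratio of TPM + 1 for 9 pairs of import genes in each library, with horizontal marks and bars for the mean ± SD of each group (3 samples). Only Grpel1 to Grpel2 and Timm8b to Timm13 have radiotherapy values that all lie below the control values.

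Of the 9 pairs of paralogues or partners compared in the plot of ratios, none had an adjusted exact permutation p under 0.36. The largest shift was that of Tomm40 to Tomm40l, which were expressed in near equal amounts in the controls (1.16-fold, 1.31-fold and 1.06-fold) and in radiotherapy 1 (1.19-fold). In radiotherapy 2 and 3 Tomm40 was 1.99-fold and 2.08-fold higher than Tomm40l. The log2 ratio differed by 0.51 (exact permutation p 0.2, adjusted 0.36). For Mtx2 to Mtx1 it differed by 0.23 (p 0.4 in the exact permutation test) and for Timm9 to Timm10 by -0.20 (exact permutation p 0.9), the latter being 0.22 without radiotherapy 3.

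Some import genes have near copies elsewhere in the genome, which decides how far a value belongs to 1 gene. Among 41 genes whose coding sequence could be compared, 17 had another gene in the table that matched at least 50% of it at 90% identity or more, and Pam16, Timm8a1 and Timm10b, picked out after their values were seen, are among those whose match was expressed at over 10% of the import gene. Pam16l has the same coding sequence as Pam16 (100% identity) and was much the more abundant of the 2. Pam16l had 115, 97.8 and 120.4 TPM in control and 107, 102 and 107 TPM in radiotherapy muscle. Pam16 had 11.6, 9.52 and 9.55 TPM in control and 7.73, 13.8 and 10.7 TPM in radiotherapy muscle. Summed, they came to 121 ± 12.1 TPM in control and 116 ± 1.86 TPM in radiotherapy muscle (mean ± SD, n = 3 each), and the log2 difference was -0.060 in place of 0.036. Timm8a1 had 7.66, 3.69 and 4.78 TPM in control and 5.84, 5.53 and 10.3 TPM in radiotherapy muscle. Gm9797, of identical coding sequence, had 4.98, 2.90 and 11.8 TPM in control and 6.70, 5.46 and 6.46 TPM in radiotherapy muscle. The log2 difference of their sum was 0.22, beside 0.37 for Timm8a1 alone. Timm10b shares 65.7% of its coding sequence with Gm45799, an overlapping gene of the same strand, and their sum differed by -0.16. How the deposited values divide reads between such genes is not given.

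**Figure D5:**
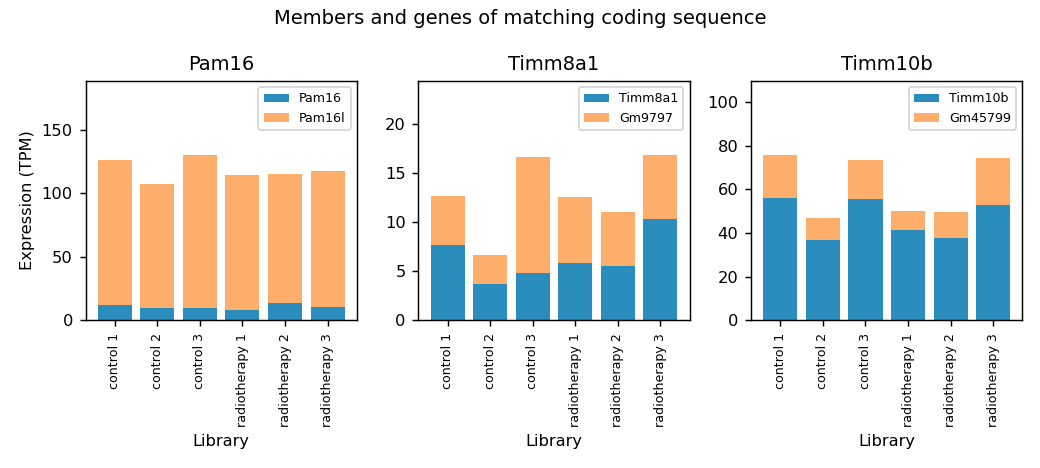
Stacked TPM of 3 import genes (blue) and of the genes that match their coding sequence (orange) in each library, on axes that start at 0. Pam16l makes up most of its stack in every library, while Timm10b exceeds its match in each.

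Other genes of the pathway, outside these symbols, were also tested without a call. Of 31 such genes 30 were tested and 0 were called by limma. The difference was positive in 6 and negative in 24 (80%, against 67.9% of all genes tested). Their median was -0.17, against -0.11 for all genes. The first gene named from each list is that of smallest limma p. Import factors (9 genes) had a median of -0.15, with Agk, a lipid kinase that is also a TIM22 subunit, at -0.35. Mtx3, of the same list, went the other way at 0.37. Among the presequence and intermediate peptidases (4 tested, median -0.21) Immp1l, an inner membrane peptidase, differed by -0.44. The quality control proteases (9 genes, median -0.17) included Oma1, a stress-activated peptidase, at -0.39. All 4 other matrix chaperones were negative (median -0.30), with Clpb, a disaggregase, at -0.47. Of the 4 transcription factors of the mitochondrial and heat stress responses (median -0.16), Atf5 differed by -0.35 (SE 0.32). None of the pathway genes named here had an unadjusted limma p under 0.05.

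Composition of the libraries moved with the groups beside these results. Transcripts of the mitochondrial genome took 10.4%, 13.7% and 8.93% of TPM in control and 18.9%, 22.5% and 15.1% in radiotherapy muscle. The groups did not overlap (exact permutation p 0.1, the smallest possible). TPM sums to a fixed total, so a larger share for these transcripts leaves a smaller share for all other genes together. All 8 genes listed as fast fibre markers had a negative difference. Their sum was 139188 to 150356 TPM in control and 68725.6 to 117465 TPM in radiotherapy muscle, lowest in radiotherapy 2. The list includes Acta1 (-0.91) and Ckm (-0.73), which are not particular to fast fibres. The other genes listed ran from -0.24 for Tnni2 to -0.88 for Pvalb. The listed genes were abundant in all 6 libraries, as the label of the tissue implies. The 6 slow fibre markers were all positive (725 to 2021 TPM against 1352 to 1792 TPM), from 0.0040 for Atp2a2 to 0.66 for Myh7. Atp2a2 hardly differed, with mean TPM of 33.3 in control and 32.4 in radiotherapy muscle. The 5 erythroid markers were all negative, at 3352 to 7203 TPM against 929.8 to 1618 TPM. Of 7 leukocyte markers 5 were tested and all were negative, with Ptprc, their defining gene, at 0.09 to 4.41 TPM, and the sum was 283 to 1784 TPM in control, highest in control 1, and 160.4 to 765 TPM in radiotherapy muscle. The 4 tested adipocyte markers of 5 were positive (263 to 846 TPM against 573 to 2242 TPM, highest in radiotherapy 1), with Lep at or near 0. Fibroblast markers (4 tested of 5, 3 negative) gave 81.1 to 175 TPM against 85.2 to 132 TPM, and endothelial markers (2 of 4 negative) 63.3 to 83.6 TPM against 62.6 to 92.6 TPM. The part of these shifts in the values of the import genes was not tested.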

How the data were processed

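RNA sequencing measured gastrocnemius muscle, with TruSeq libraries, in 3 samples labelled control and 3 labelled radiotherapy. The authors deposited 1 table of TPM values for 57010 genes. HISAT2, StringTie, RSEM and build mm9 are listed, per the submitters' processing notes. The annotation and strandedness, like tool versions and roles, were not given in the sources used here. TPM is scaled to one total per library, so depth is unknown and no counting interval can be given. Nothing in the deposited TPM was rescaled for the main test.

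Values were transformed to log2(TPM + 1), which understates the change of low genes, and the 11375 genes reaching 1 TPM in 3 or more samples were tested with limma 3.58.1 in R 4.3.3 (mean-variance trend, two-sided, group as the only term). P-values were adjusted by Benjamini-Hochberg over all genes, with a threshold of 0.05. Ratios of pairs and the share of the mitochondrial genome were tested over samples by exact permutation, two-sided. The fit was tested on simulated data. The members and lists were chosen with earlier results of these data known. Named with the value of every sample were, in each role, the gene of highest mean and that of smallest p, each gene whose groups did not overlap, and the members of the pairs. No 2 libraries were duplicates.

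Near copies were found with blastn 2.17.0+ among GENCODE M21 transcripts. That annotation is on GRCm38 and not mm9, so it served only for sequence matches and overlaps, with no coordinates. Promoters are those of RefSeq on GRCm38.p6. Alternatives were other scalings, filters (none, or 5 TPM) and pseudocount (0.1), limma without trend, robust or with sample weights, a replicate block, and samples left out. Summing the near copies was chosen after seeing the data, and its results for 1 gene are not reported here. Same-numbered samples did not deviate together (r between -0.110 and 0.024). With 3 samples per group this cannot decide whether the numbers pair samples, and the labels state no pairing. Python 3.11.15 and matplotlib 3.10.9 drew the figures.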

Additional observations from a re-analysis of the deposited data

How the results depend on the processing

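No import gene was called by limma under any alternative run, and the lowest adjusted p was 0.286, for Timm8b with sample weights. Directions under alternatives were followed for 31 genes. Of 530 gene values, 479 kept their direction and 51 did not, and 11 genes never changed direction. The filters, limma without trend or robust, and the replicate block leave each log2 difference as it was. Directions kept under these settings were therefore fixed in advance. The replicate block gave 0 calls and a median of -0.13. The median difference was 0.025 with quantile normalization and 0.0075 without control 1 and radiotherapy 2 together. Over all genes limma called 6 without control 1, 1 with sample weights and 0 otherwise. Depth being unknown, limits for low genes could not be set.

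The cause of the following changes of direction was not tested. With sample weights, which gave radiotherapy 1 a weight of 31.2 and the others at most 1.12, log2 differences were 0.11 for Samm50, 0.066 for Timm23, 0.052 for Timm50, 0.0071 for Dnajc19, 0.033 for Gfer, -0.22 for Timm10 and -0.34 for Pam16. With quantile normalization they were 0.019 for Samm50, 0.019 for Tomm5, 0.072 for Tomm40, 0.13 for Grpel1, 0.15 for Gfer, 0.0046 for Pmpcb, 0.11 for Timm13 and 0.047 for Timm10b. Median-of-ratios scaling gave 0.036 for Grpel1, 0.047 for Gfer and 0.035 for Timm13. Without the abundant and mitochondrial genes they were 0.0018 for Tomm40, 0.053 for Grpel1, 0.066 for Gfer and 0.051 for Timm13. Without control 1 and radiotherapy 2 together they were 0.12 for Samm50, 0.016 for Tomm40, 0.041 for Hspa9, 0.12 for Chchd4, 0.051 for Hspd1, 0.011 for Timm13, 0.048 for Timm10b and -0.061 for Pam16, and the Hspe1 to Hspd1 ratio was -0.14. With copies summed Pam16 was -0.060. Leaving out 1 sample at a time gave ranges of -0.11 to 0.14 for the Hspe1 to Hspd1 ratio, -0.48 to 0.22 for the Timm9 to Timm10 ratio, -0.33 to 0.091 for Chchd4, -0.067 to 0.49 for Dnajc15, -0.22 to 0.0099 for Dnajc19, -0.23 to 0.27 for Gfer, -0.20 to 0.12 for Grpel1, -0.46 to 0.12 for Hspa9, -0.50 to 0.014 for Hspd1, -0.064 to 0.22 for Mtx1, -0.15 to 0.23 for Pam16, -0.33 to 0.13 for Samm50, -0.17 to 0.52 for Timm10, -0.40 to 0.051 for Timm17a, -0.033 to 0.30 for Timm17b and -0.34 to 0.075 for Tomm40.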
